A study of Mus musculus with 140 samples.

Results

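N6-methyladenosine (m6A) clusters in long internal coding exons were examined, that is, clusters whose midpoint lay on the same strand in coding sequence of an exon of 400 bases or more that is neither the first nor the last of its transcript. The longest-coding transcript of each protein-coding gene of GENCODE vM21 (mm10) was used. Of 6907427 clusters listed in 38 m6A eCLIP libraries, 523709 (7.58%) met this rule. Of the 2746743 clusters enriched over input at a p of 0.001 or less, 384369 (14.0%) did. The rule took in 4587 exons of 3652 genes, of which 2987 genes had 1 such exon. Of these exons 3758 held a listed cluster and 2975 an enriched one. These exons made up 2.77% of internal coding exons and 16.8% of their coding bases. The 161069 shorter internal coding exons served as the contrast, with 1279425 listed and 73546 enriched clusters.

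m6A is written on nascent transcripts by a methyltransferase complex built around METTL3 and METTL14, at adenosines in a short sequence context of which GGACT is a common form. In mammalian mRNA the mark is known to concentrate around stop codons, in 3′ UTRs and in unusually long internal exons. Protein complexes left on the mRNA next to each splice junction are known to keep nearby sequence unmethylated. Nuclear and cytoplasmic reader proteins bind the mark and influence splicing, translation and decay.

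The libraries came from bulk left-hemisphere tissue of B6CBA-Tg(HDexon1)62Gpb/3J (R6/2) mice, which carry exon 1 of human mutant huntingtin as a transgene, and of non-transgenic (NT) littermates at 3 months, with 8 striatum and 8 cortex m6A libraries per genotype, from 4 males and 4 females. A second experiment compared cortex of C57Bl/6 males given 500 ug of a TDP-43-lowering antisense oligonucleotide (ASO) or PBS into the ventricle at 5 weeks, with tissue taken after a further 2 weeks (3 libraries per treatment). The labels give cortex and an age of 2 months, whereas the treatment protocol names striatum and the times above give a younger age. TDP-43 eCLIP of R6/2 and NT mice (32 libraries) was used as a second binding assay on the same exons. In eCLIP the RNA pulled down with an antibody (IP) is sequenced. For TDP-43 the RNA is crosslinked to the protein, and for m6A to the antibody itself. Clusters are called on the IP reads, and each is then scored against a size-matched input library, so a listed cluster can lie above or below its input.

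Several features of the libraries bear on the values below. Within the ASO group and within the PBS group, 99.2 to 99.3% of intervals were identical between libraries, against 1.96 to 1.97% between ASO and PBS and at most 1.07% between m6A libraries within any other group. The spread within a treatment is therefore not the spread between mice. Most male libraries stood apart from female ones. In NT striatum, clusters in long exons that lay over 5000 bases from the transcript's 3′ end made up 30.7 to 31.7% in males, against 22.7 to 27.3% in females. In R6/2 striatum the males had 31.1 to 31.8% and the females 23.5 to 30.8%, with female replicate 4 at 30.8%, close to the males. The labels give no processing batch, so sex and processing cannot be told apart. One male NT cortex library (replicate 1) resembled the female libraries at 25.01%, against 30.7 to 32.3% in the other males. The summed enriched clusters of 8 striatal projection neuron markers were 120 to 143 per 100000 in R6/2 striatum and 163 to 221 in NT striatum. In cortex they were 34.8 to 59.9 in R6/2 and 67.5 to 90.4 in NT. The 8 cortical excitatory neuron markers gave 57.01 to 84.7 in R6/2 striatum, 51.1 to 85.5 in NT striatum, 146 to 173 in R6/2 cortex and 150 to 181 in NT cortex. The 17 astrocyte markers gave 189 to 213 in R6/2 striatum and 209 to 251 in NT striatum, and 189 to 221 in R6/2 cortex and 208 to 251 in NT cortex, with Aldh1l1 and Slc4a4 at 0. Of the 16 neuronal markers, Rgs9 was at 0 in R6/2 cortex and Rorb in the ASO and PBS libraries. These sums count m6A clusters in bulk tissue. Fewer cells of a type, less RNA per cell and less m6A on the same RNA therefore cannot be told apart.

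Windows of 61 bases around a GGACT inside long exons show the sequence that the clusters cover. They were chosen because the results turn on these exons and because the central GGACT, in capitals, was the copy of its exon covered by an enriched cluster in the most libraries (the first where several tied). Sequences are from the GRCm38 assembly, written 5′ to 3′ on the gene's strand.
Map1a exon 5: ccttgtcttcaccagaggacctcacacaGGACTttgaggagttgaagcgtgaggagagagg
Son exon 3: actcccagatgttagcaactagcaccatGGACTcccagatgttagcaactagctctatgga
Arhgap35 exon 2: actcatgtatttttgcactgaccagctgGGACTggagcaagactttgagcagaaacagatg
Plcl2 exon 2: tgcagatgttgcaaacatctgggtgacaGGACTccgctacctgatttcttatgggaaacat
Trank1 exon 20: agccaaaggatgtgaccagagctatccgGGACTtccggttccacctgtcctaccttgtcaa
Cpt2 exon 4: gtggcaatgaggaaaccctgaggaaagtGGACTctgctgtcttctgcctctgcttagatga
Klf6 exon 2: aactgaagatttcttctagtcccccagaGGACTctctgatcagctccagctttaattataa
Prag1 exon 3: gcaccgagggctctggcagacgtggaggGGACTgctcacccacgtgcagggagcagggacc
The Map1a window (chr2:121300989-121301049, plus strand) has its central copy inside an enriched cluster in 38 of 38 libraries, with a median log2 fold over input of 2.72. The copies of Son (chr16:91656666-91656726, plus strand) and Arhgap35 (chr7:16564689-16564749, minus strand) were also covered in all 38, with median log2 folds of 3.21 and 4.26. Those of Plcl2 (chr17:50606672-50606732, plus strand), Trank1 (chr9:111391815-111391875, plus strand), Klf6 (chr13:5864901-5864961, plus strand) and Prag1 (chr8:36103025-36103085, plus strand) had 38 of 38 libraries as well. The Cpt2 copy (chr4:107907580-107907640, minus strand) was covered in 22 of 38. In distance from the nearest exon end, these GGACT copies ranged between 163 bases in Klf6 and 2085 bases in Son.

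Long internal exons carried far more enriched m6A clusters per kb than shorter internal exons of the same genes. Genes with both kinds of exon and an enriched cluster anywhere in the transcript in the library were used, so that transcript abundance was shared. Clusters in the long exon itself could meet this condition. The number of genes ranged between 2168 and 2410 over the 38 libraries. In R6/2 striatum the log2 ratio of densities, long over shorter, was 4.65 (mean over 8 libraries), in NT striatum 4.79, in R6/2 cortex 5.01 and in NT cortex 5.09. The ratio was positive in 8 of 8 libraries of each group (exact sign-flip permutation test, two-sided, p = 0.00781 in each, the smallest that 8 libraries allow, adjusted p = 0.0133 over 80 tests). In the ASO and PBS libraries it was 5.00 and 4.54, where 3 libraries allow no p below 0.25. In NT striatum the densities themselves were 3.32 ± 0.263 enriched clusters per kb in long exons and 0.121 ± 0.0123 in shorter exons (SD, n = 8).

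Both the number of listed clusters and the share of them that was enriched differed. Listed clusters per kb differed by 1.92 to 2.10 on the log2 scale over the 4 R6/2 and NT groups. In R6/2 striatum 80.6% ± 2.61 of listed clusters in long exons were enriched, against 12.3% ± 2.04 in shorter exons of the same genes (SD, n = 8, exact sign-flip permutation, adjusted p = 0.0133). In NT cortex the shares were 75.3% ± 3.05 and 9.71% ± 2.35 (same test and p). Over all libraries the median log2 fold over input of listed clusters was 1.73 in long exons and −0.67 in shorter exons.

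The motif was about as frequent in both classes. GGACT occurred 4886 times in long exons (1.17 per kb) and 23363 times in shorter exons (1.13 per kb). In the genes used above, 58.5% ± 4.47 of GGACT copies in long exons lay inside an enriched cluster in R6/2 striatum, against 2.48% ± 0.412 of those in shorter exons. The shares were 56.2% ± 5.68 and 2.21% ± 0.414 in NT striatum, 57.4% ± 3.11 and 2.19% ± 0.351 in R6/2 cortex, and 54.0% ± 4.80 and 1.81% ± 0.423 in NT cortex (SD, n = 8 each, exact sign-flip permutation, adjusted p = 0.0133 in each). Of the long-exon copies, 2063 lay in an enriched cluster in at least 50% of libraries and 758 in all 38, against 294 of the shorter-exon copies in at least 50%.

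The share of enriched clusters that held GGACT differed little between exon classes in R6/2 and NT cortex and more in the other groups. In R6/2 striatum 18.6% ± 1.84 of enriched clusters in long exons held it, against 16.1% ± 3.67 in shorter exons (exact sign-flip permutation, adjusted p = 0.0133). In R6/2 cortex the shares were 18.8% ± 1.32 and 18.9% ± 1.43 (same test, adjusted p = 0.91). The striatal gap came mostly from females. R6/2 female replicates 1 to 3 had 17.2 to 18.6% in long and 12.0 to 12.3% in shorter exons, and replicate 4 had 15.6% and 15.1%. R6/2 males had 18.7 to 21.1% and 18.2 to 20.2%. NT striatum females had 17.4 to 18.8% and 11.7 to 14.4%, and NT males 18.4 to 20.4% and 18.75 to 19.6%. In the ASO libraries the shares were 16.3% ± 0.0888 and 12.1% ± 0.788, and in the PBS libraries 14.8% ± 0.093 and 9.26% ± 1.62 (SD, n = 3 each, exact sign-flip permutation, p = 0.25, the smallest that 3 libraries allow). The shorter GGAC was in 46.8% of enriched clusters in long exons and 35.0% in shorter exons in R6/2 striatum (exact sign-flip permutation, adjusted p = 0.0133). For GGACT, with the length limit at 600 bases, the difference was negative in all 4 R6/2 and NT groups. Clusters in long exons were wider, with a median of 78 bases against 45. TCAGG, a sequence outside the m6A context, was likewise found in more of them, at 11.6% ± 0.996 against 6.94% ± 1.21 in R6/2 striatum. Over windows of the same width in the same exons, GGACT was in excess by 7.81 percentage points in long exons and 3.68 in shorter ones (R6/2 striatum, exact sign-flip permutation, adjusted p = 0.0133). The windows included those overlapping the cluster itself. Such windows are a larger part of a shorter exon, which lowers its excess, so the 2 values cannot be compared evenly. In long exons the motif was densest 19 bases upstream of the cluster midpoint, at 3.86 copies per kb, against 1.41 per kb at 80 to 100 bases on either side. In shorter exons it was densest 26 bases upstream, at 5.07 copies per kb, against 1.51 per kb.

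Coverage changed with exon length well before and after the limit of 400 bases, which only divides a gradient. Genes with an enriched cluster in the library were used here, with or without a long exon. Averaged over the 38 libraries, 0.36% of GGACT copies lay in an enriched cluster in exons under 100 bases, 0.73% from 100 to below 200, 4.24% from 200 to below 300 and 26.2% from 300 to below 400. In long exons the value was 53.2% from 400 to below 600 bases, 61.02% from 600 to below 1000, 59.4% from 1000 to below 2000 and 49.9% at 2000 or more. Just below the limit, exons of 350 to below 400 bases had 1.48 enriched clusters per kb and 31.8% of GGACT copies covered. Just above it, exons of 400 to below 450 bases had 2.15 per kb and 47.2%.

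**Figure D1:**
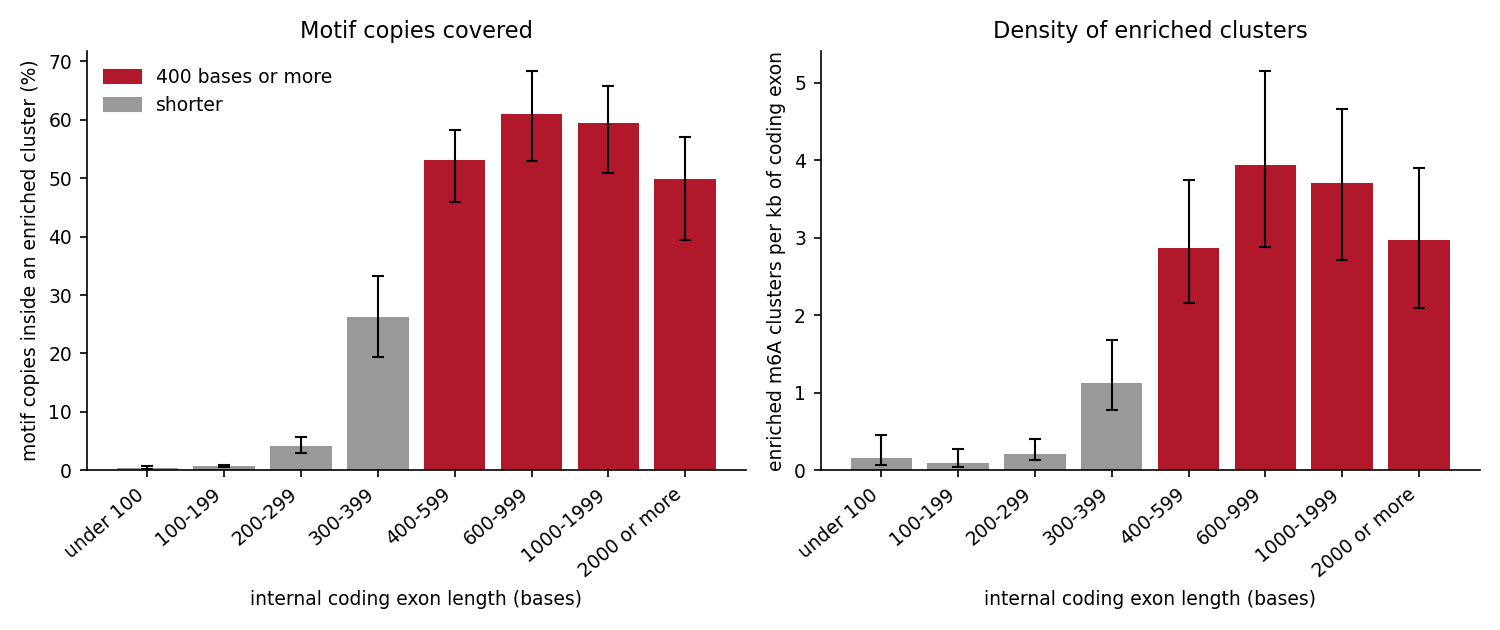
Share of GGACT copies inside an enriched m6A cluster (left, percent) and enriched clusters per kb of coding exon (right) by internal exon length in bases. Bars are means over the 38 m6A libraries and lines reach the lowest and the highest library. Exons of 400 bases or more (red) hold means between 49.9 and 61.02%, and those under 200 bases less than 1%.

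Within long exons the edges were poor in m6A clusters. The genes were again those with an enriched cluster in the library. Of GGACT copies within 50 bases of an exon end, 20.98% lay in an enriched cluster, against 39.9% from 50 to below 100 bases, 62.9% from 100 to below 200 bases, 69.6% from 200 to below 400 bases and 55.3% at 400 bases or more. Enriched clusters per kb followed, at 0.96, 2.19, 3.65, 4.71 and 3.30 over the same distances. At the same distances shorter exons were lower, with 3.30% of copies covered from 50 to below 100 bases and 22.2% from 100 to below 200 bases. Clusters were placed by midpoint, and a cluster centred near an exon end has part of its width outside the exon. A copy near an end counted as covered only if the cluster's midpoint lay in the same exon. Both can lower the values nearest the ends, and their part was not tested. These are descriptions over libraries that share the exons, with no test.

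**Figure D2:**
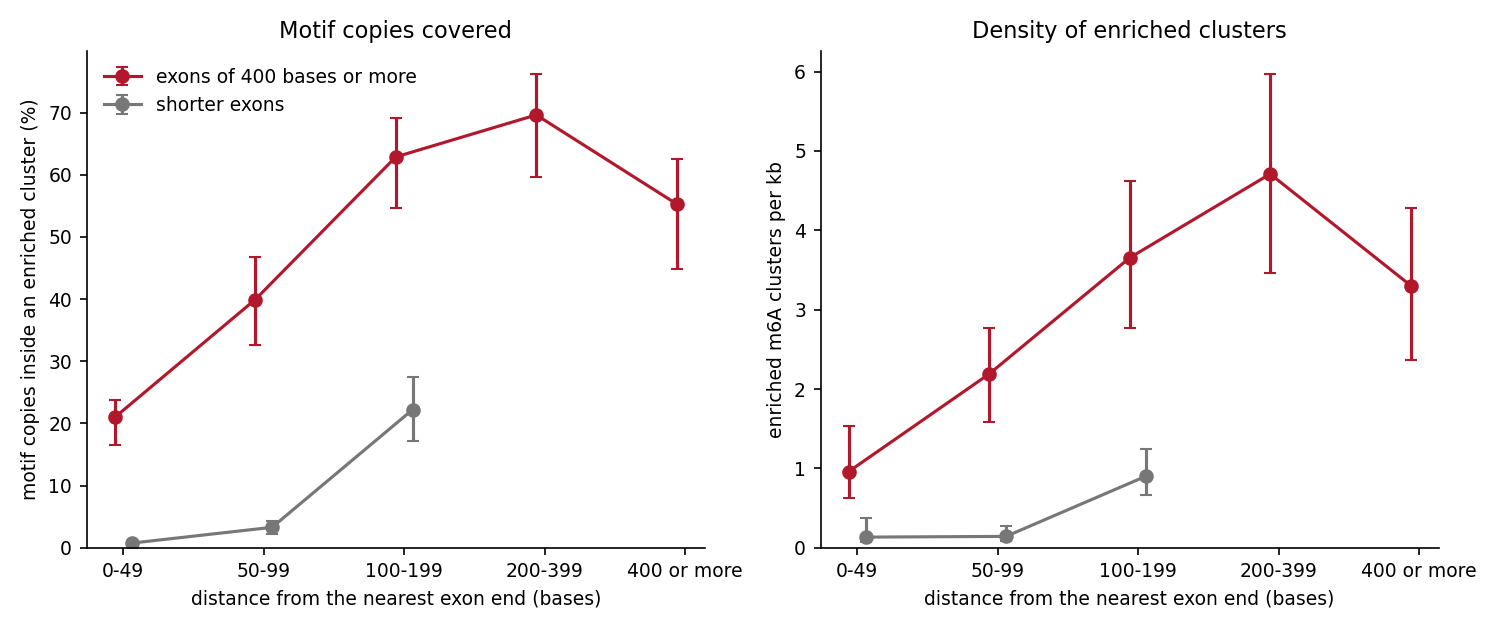
Share of GGACT copies inside an enriched cluster (left, percent) and enriched clusters per kb (right) against distance in bases from the nearest exon end, for exons of 400 bases or more (red) and shorter exons (grey). Points are means over the 38 m6A libraries and lines reach the lowest and highest library. From 100 to below 200 bases long exons average 62.9% and shorter exons 22.2%.

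TDP-43, an RNA-binding protein that prefers UG-rich RNA and regulates splicing, had density ratios near 0 on the log2 scale in R6/2 and NT mice. In R6/2 striatum the log2 density ratio of enriched TDP-43 clusters, long over shorter exons of the same genes, was 0.01 (exact sign-flip permutation, adjusted p = 0.914). It was 0.14 in NT striatum (adjusted p = 0.0446), −0.01 in R6/2 cortex (0.865) and −0.07 in NT cortex (0.0987). In every TDP-43 library long exons had fewer listed clusters per kb than shorter exons, and a larger share of them was enriched. In NT striatum male replicate 1 the listed densities were 3.02 and 5.07 per kb and the enriched shares 24.9% and 11.3%. In NT cortex male replicate 4 they were 3.76 and 5.63 per kb, and 55.4% and 43.8%. A larger enriched share in long exons was thus not particular to m6A. Of all enriched TDP-43 clusters, 7.50 to 11.3% per library lay in long internal exons and 28.5 to 40.9% in shorter ones, against 11.7 to 15.7% and 1.89 to 4.60% for m6A. In at least 50% of the libraries of each assay, 2351 of the 4587 long exons held an enriched m6A cluster, 558 an enriched TDP-43 cluster and 490 both. The share of enriched TDP-43 clusters in long exons was 9.77% ± 1.53 in R6/2 and 8.48% ± 0.590 in NT striatum (SD, n = 8 each, exact permutation, p = 0.038, adjusted p = 0.117), and 8.81% ± 0.789 in R6/2 and 7.97% ± 0.475 in NT cortex (exact permutation, p = 0.0176, adjusted p = 0.117). Enriched TDP-43 clusters per library averaged 15970 ± 6776 in R6/2 and 17843 ± 6081 in NT striatum. In cortex they averaged 31620 ± 9298 in R6/2 and 38635 ± 8472 in NT. The part of these numbers in the share was not tested. The exons shared with m6A are 20.8% of the m6A exons and 87.8% of the TDP-43 exons, and long transcripts expressed at high levels can enter both lists.

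m6A in long exons was spread over many genes, with a heavy top. An enriched cluster was found in 2975 long exons of 2419 genes in at least 1 library and in 1616 exons in all 38. The 100 richest exons held 19.0% of the enriched clusters. In what follows, an exon's value is its number of enriched clusters divided by a size factor of the library. Map1a exon 5, of 8104 bases, led with 75.7 (lowest), 96.2 (median) and 122 (highest) over the 16 NT libraries. The gene encodes a microtubule-associated protein of neurons. No other exon came near this range. Son exon 3, which encodes most of a nuclear speckle protein needed for splicing, had 26.2, 34.9 and 43.4.

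The next exons in order overlapped each other widely. Bsn exon 5 (Bassoon, a presynaptic scaffold) averaged 32.9 ± 11.04, Ank3 exon 6 (ankyrin-G, the organiser of the axon initial segment) 30.2 ± 9.83, exon 2 of Arhgap35 30.1 ± 5.84 and Map1b exon 5 (a relative of Map1a) 29.7 ± 5.74 (SD, n = 16). Rai1, Ptprz1, Bod1l, Plcl2, Trank1 and Ankrd11 followed, with means between 24.4 and 29.4. Per kb the order differed. Map1a kept 11.9 enriched clusters per kb, then came Plcl2 with 9.87 and Arhgap35 with 8.18, and Ankrd11 was lowest of the 12 with 3.74. The number of GGACT copies did not track these values closely. Map1a exon 5 held 11, of which 9 were covered in at least 1 library. Son exon 3 held 15 with 14 covered, and Ank3 exon 6 held 3 with none covered by an enriched cluster in any library.

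R6/2 and NT libraries placed similar shares of their enriched clusters in long exons. In striatum the share was 14.4% ± 1.46 in R6/2 and 14.0% ± 1.48 in NT (SD, n = 8 each, two-sided exact permutation of genotype labels within each sex, p = 0.258, adjusted p = 0.368 over 20 tests). In cortex it was 14.6% ± 0.771 in R6/2 and 13.8% ± 1.12 in NT (exact permutation, p = 0.0359, adjusted p = 0.117). The number of enriched clusters per library moved with it, at 68900 ± 6497 in R6/2 cortex and 62827 ± 5376 in NT cortex (exact permutation, p = 0.00939, adjusted p = 0.117), and its part in the share was not tested. Male libraries lay above female ones in every group apart from NT cortex, where male replicate 1 stood at 12.6%.

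**Figure D3:**
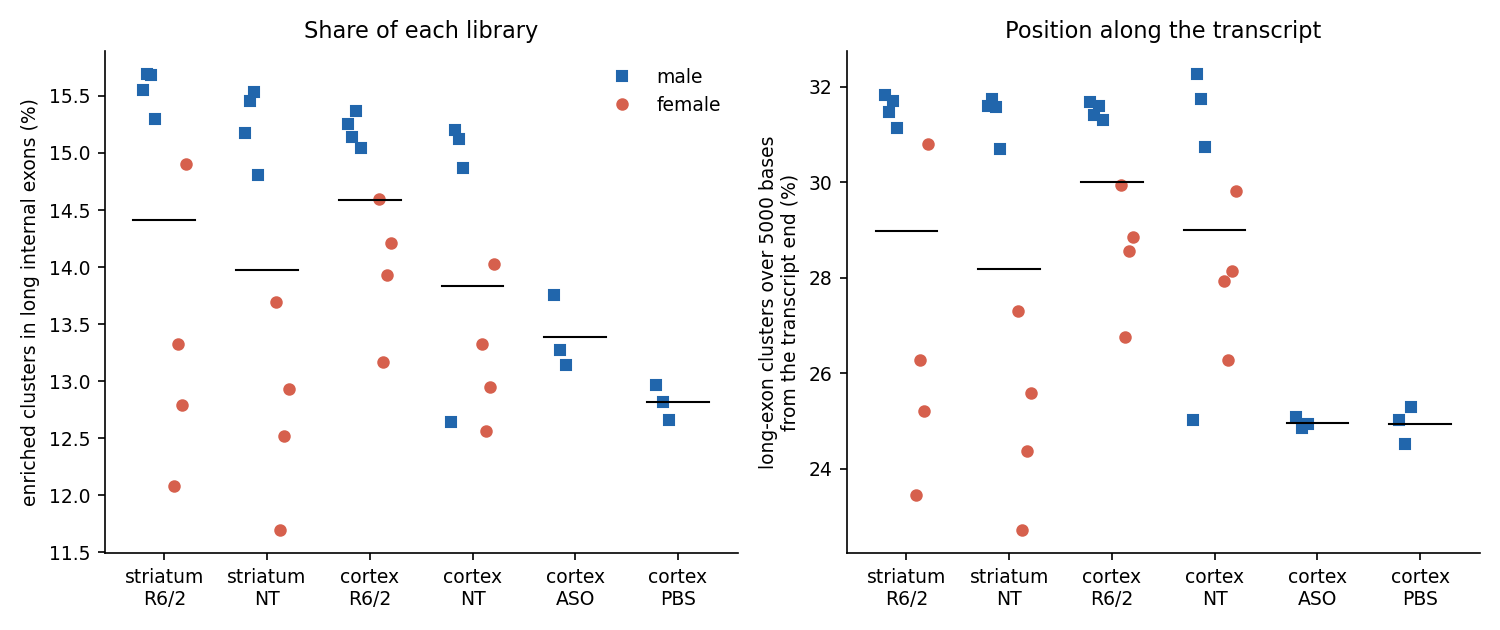
Share of each m6A library's enriched clusters in long internal exons (left, percent) and share of its long-exon clusters over 5000 bases from the transcript's 3′ end (right, percent) by group. Squares are males, circles females and lines group means. The axes do not start at 0. In striatum the mean share is 14.4% in R6/2 and 14.0% in NT, and males lie above females in both.

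Single long exons did differ between genotypes in striatum. Tests were run on the 1871 long exons that reached 2 enriched clusters in 8 or more of the 16 libraries, and 60 were called at an adjusted p under 0.05 (limma, Benjamini-Hochberg over 11512 transcript segments), 25 higher and 35 lower in R6/2. Over all segments tested 4.23% were called (1.27% higher and 2.96% lower), and 60 of 1871 is not above that background. The median log2 change was 0.08 over long exons and 0.01 over all segments. All 60 had the same sign in males and females, but a fit to both sexes together had called them, so this agreement is no separate support. Of the 60, 7 had no overlap between the 8 R6/2 and the 8 NT libraries. Over all segments tested 0.738% had no overlap, against 0.374% of the long exons tested. The balance of directions depended on what was counted, with 50 higher and 45 lower at a p of 1e-10, 22 higher and 15 lower by covered bases, and 6 higher and 19 lower with all listed clusters. With males alone 6 exons were called and with females alone 5.

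Among called exons that averaged at least 4 normalized enriched clusters, the 6 lowest had log2 changes of −1.38 to −0.63. Inf2 exon 21 (chr12:112611410-112612036) encodes part of a formin, an actin assembly factor. It had 4.16, 4.43 and 6.25 normalized enriched clusters (lowest, median and highest) in R6/2 striatum, against 9.07, 10.2 and 15.1 in NT striatum. The groups did not overlap (log2 change −1.06, SE 0.11, limma adjusted p 3.5e-06).

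Ryr1 exon 94 (chr7:29019475-29020266) belongs to a ryanodine receptor, which releases calcium from the endoplasmic reticulum. Its values were 1.13, 2.16 and 4.16 in R6/2 and 4.90, 6.57 and 8.68 in NT striatum, again without overlap (log2 −1.38, SE 0.18, limma adjusted p 7.9e-05). Shank3 exon 21 (chr15:89547626-89549882) is the long exon of a postsynaptic scaffold of excitatory synapses. It had 8.84, 10.8 and 14.3 in R6/2 and 14.7, 16.9 and 22.8 in NT striatum (log2 −0.65, SE 0.10, limma adjusted p 0.000539). All 8 NT libraries lay above all 8 R6/2 libraries.

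Of the other exons that fell, Abcb9 exon 2 (a lysosomal peptide transporter) changed by −0.66 on the log2 scale, Coch exon 10 (an extracellular protein first known from the inner ear) by −0.65 and Myt1l exon 10 (a neuronal transcription factor) by −0.63. Their groups overlapped. The call for Coch was lost without any one of 10 libraries (limma adjusted p up to 0.0906). Of the 12 richest exons, 2 also fell. The 12 were ranked over NT libraries that include the striatum libraries compared here, which favours lower values in R6/2. Map1a exon 5 had 73.5, 86.6 and 93.5 in R6/2 striatum and 92.1, 100.6 and 125 in NT striatum (log2 −0.29, SE 0.06, limma adjusted p 0.00787), with a small overlap. Trank1 exon 20 averaged 20.2 ± 3.60 in R6/2 and 28.8 ± 3.00 in NT (log2 −0.51, limma adjusted p 0.00125).

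The exons with a mean of at least 4 that rose in R6/2 striatum did so with overlapping groups. Cpt2 exon 4 (a mitochondrial enzyme of fatty acid import) had 4.41, 5.63 and 7.93 in R6/2 and 1.09, 3.45 and 5.06 in NT striatum (log2 0.82, SE 0.21, limma adjusted p 0.0259). Trip12 exon 3 (a ubiquitin ligase) changed by 0.48 on the log2 scale and Hipk2 exon 2 (a nuclear kinase) by 0.52. Virma exon 8 lies in the gene of a scaffold of the m6A methyltransferase complex itself. It had 5.36, 7.77 and 11.02 in R6/2 and 3.77, 6.09 and 7.06 in NT striatum (log2 0.44, SE 0.11, limma adjusted p 0.0212).

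For 2 of the named exons the change came mostly from females. Hivep3 exon 4 (a zinc finger transcription factor) rose by 1.57 on the log2 scale in females and by 0.05 in males. N4bp2 exon 11 rose by 1.39 in females and 0.33 in males. The Hivep3 exon ends 5779 bases from the transcript end, where NT females had 0.94 to 1.96 and NT males 6.31 to 9.77 normalized enriched clusters. Female minus male medians over long exons in striatum were −0.00 on the log2 scale within 1 kb of the transcript end, −0.14 at 1 to 3 kb, −0.31 at 3 to 6 kb and −0.64 at 6 kb or more. The part of transcript position in these calls was not tested. A fit chosen after seeing the data, with the far share as a covariate, kept 50 of 53 calls of named exons. That count pools all comparisons and is not specific to Hivep3 and N4bp2. Counting covered bases instead kept 17 of the 53, with 32 no longer called and 4 turned in direction. No test of genotype by sex called a long exon in either region. Without single libraries the calls of Hivep3 and N4bp2 were each lost for 7 libraries and that of Hipk2 for 14, and that of Cpt2 for 2.

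**Figure D4:**
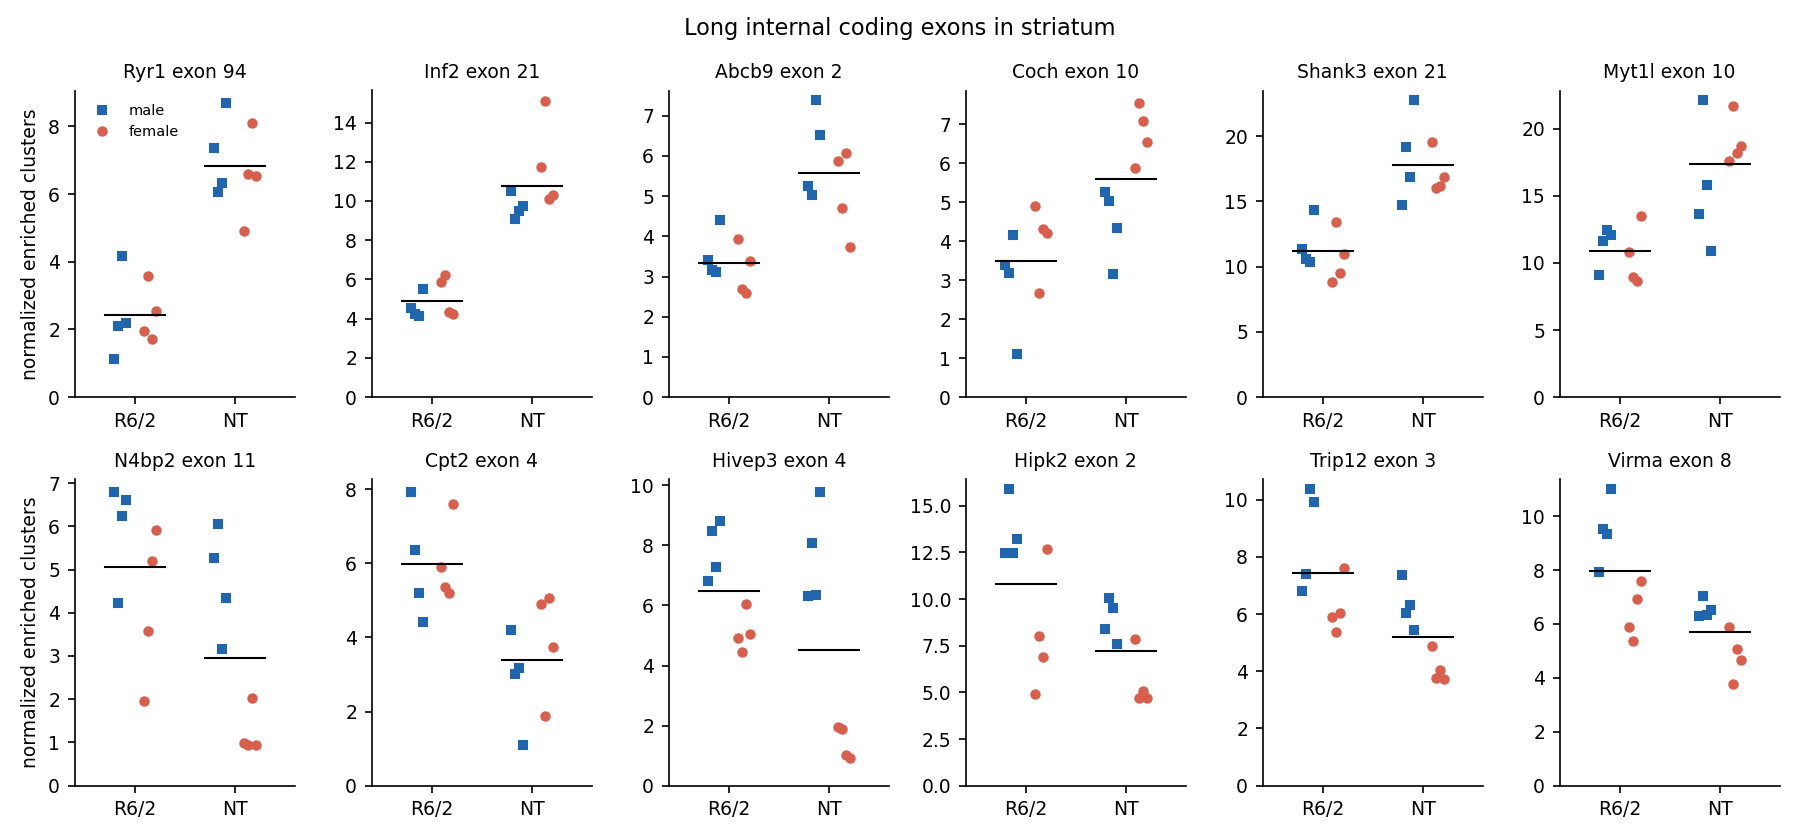
Normalized enriched clusters (vertical axis, per library) in the 6 lowest (top row) and 6 highest (bottom row) log2 changes among called long exons of striatum with a mean of at least 4, R6/2 left of NT. Squares are males, circles females and lines means of 8 libraries. Inf2, Ryr1 and Shank3 show no overlap between R6/2 and NT, and in Hivep3 the NT females lie below all other libraries.

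Relative to the rest of the same transcript, no long exon was called in striatum. This fit asks whether an exon's enriched clusters changed more than those elsewhere in the mRNA, and takes exons whose transcript had a mean of at least 2 enriched clusters outside the exon. Of 1366 long exons none was called with limma (0.0737% of all 6785 segments, 0.0147% higher and 0.059% lower), and 107 had an unadjusted p under 0.05 (7.83%, against 9.26% of all segments in this fit). Among the 60 exons above, 44 entered this fit. For the 26 that were lower, the rest of the transcript had a median log2 change of −0.43, with 25 of 26 lower, against −0.57 in the exons. For the 18 that were higher it was 0.20, with 14 of 18 higher, against 0.81 in the exons. These exons were picked by their own change, so its larger size is no finding. For Shank3 the rest of the transcript averaged 6.59 in R6/2 and 9.21 in NT striatum, and the exon's change relative to it was −0.20 (SE 0.19, limma adjusted p 0.808). Ryr1 had no enriched cluster outside the exon in either group. The levels of the transcripts themselves were not analysed here.

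**Figure D5:**
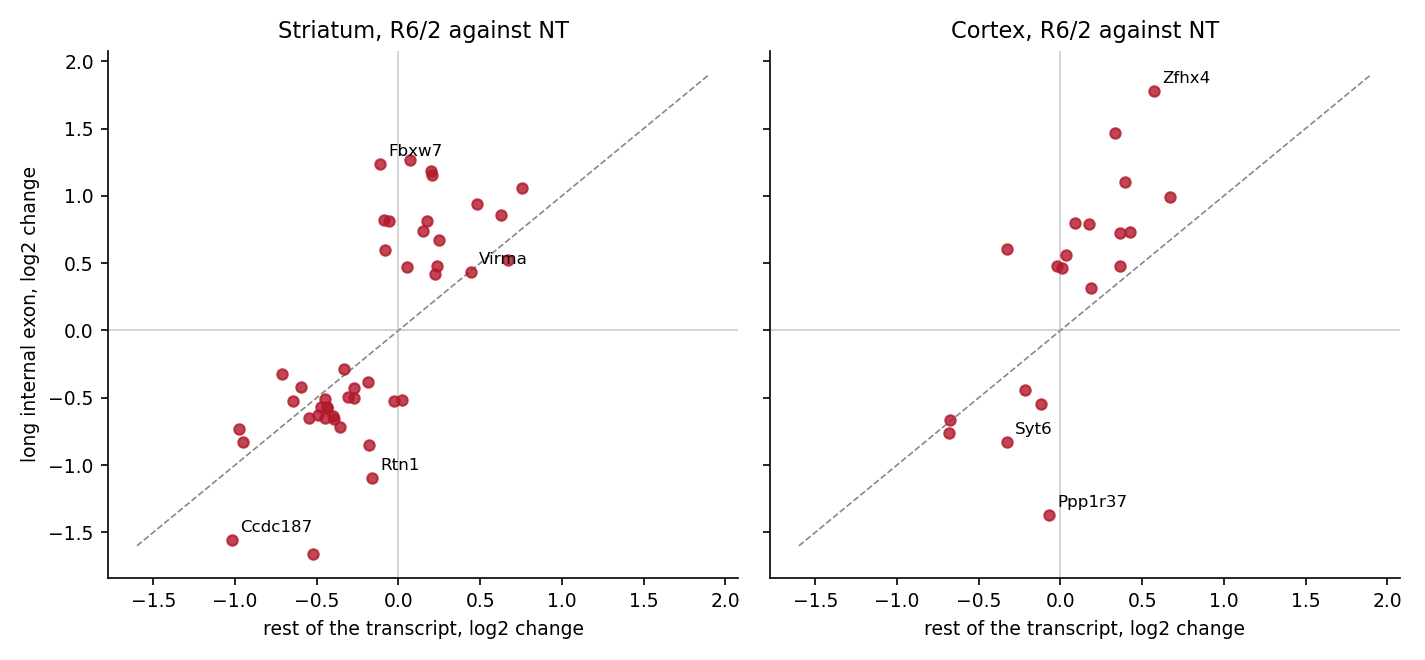
Log2 change (R6/2 minus NT) of called long exons (vertical axis) against that of the enriched clusters elsewhere in the transcript (horizontal axis), in striatum (left, 44 exons) and cortex (right, 20 exons). The dashed line marks equal change. Of the 26 lower exons in striatum, 25 lie left of 0.

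In cortex fewer long exons were called than in striatum, and the balance of their directions rested on single libraries. Of 1731 tested, 28 were called with limma, 21 higher and 7 lower, where 2.91% of all 10525 segments were called (1.22% higher and 1.69% lower). Leaving out R6/2 male replicate 2, or replicate 3, left 9 calls, 4 higher and 5 lower. With males alone 1 exon was called and with females alone 0. With both sexes 296 had an unadjusted p under 0.05 (17.1%, as over all segments).

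The exons named here that rose in R6/2 cortex had overlapping groups. Zfhx4 exon 10 (a large homeodomain zinc finger factor) had 2.99, 6.95 and 10.4 in R6/2 and 0, 2.04 and 6.00 in NT cortex (log2 1.78, SE 0.43, limma adjusted p 0.0277). Klf6 exon 2 (a zinc finger factor) had 3.99, 6.21 and 7.06 in R6/2 and 1.07, 3.14 and 5.04 in NT cortex (log2 0.99, SE 0.24, limma adjusted p 0.0284). Ep300 exon 2 (the histone acetyltransferase p300) rose by 0.73 and Srcap exon 25 (a chromatin remodeller) by 0.56 on the log2 scale. The call of Zfhx4 was lost without any one of 5 libraries (limma adjusted p up to 0.0575), that of Klf6 without any one of 4 (up to 0.0556) and that of Srcap without R6/2 male replicate 3 (0.053). Cep164 exon 4 (a centriole protein) and Resf1 exon 3 (a factor that silences retroelements) changed by 0.64 each, and lost their calls without any one of 12 and 11 libraries.

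Of the exons that fell in cortex, Prag1 exon 3 had 6.05, 7.76 and 9.496 in R6/2 and 8.37, 10.95 and 14.0 in NT (log2 −0.44, SE 0.10, limma adjusted p 0.0212). Zfyve28 exon 8 (an endosomal protein) changed by −0.39, and this call was lost without any one of 9 libraries (limma adjusted p up to 0.0689). Relative to the transcript, 3 long exons were called of 1242 (0.169% of all 5920 segments, 0.0845% higher and 0.0845% lower). Usp2 exon 2 (a deubiquitinase) was higher by 1.41 (SE 0.21, limma adjusted p 0.0026). There the exon averaged 5.14 ± 1.04 in R6/2 and 3.99 ± 1.37 in NT, and the rest of the transcript 3.18 in R6/2 and 6.45 in NT. The other 2, chosen after their values were seen, were Ppp1r37 exon 11, with −1.31, and Zer1 exon 4, with 1.63 (limma adjusted p 0.0026 and 0.00523).

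Calls were made in both regions for 3 exons, named here after their values were seen, of which Zfyve28 exon 8 lost its cortex call without any one of 9 libraries (limma adjusted p up to 0.0689). Ppp1r37 exon 11 (a phosphatase 1 inhibitor) changed by −1.24 in striatum and −1.37 in cortex, without overlap of R6/2 and NT in either region. Zfyve28 exon 8 changed by −0.52 and −0.39, and N4bp2 exon 11 by 0.86 and 1.47. The genotype effect differed between regions by a limma contrast in 4 of 1765 long exons tested, where 0.121% of all 10766 segments were called. These were Inf2 exon 21 (striatum minus cortex −0.89, adjusted p 0.00235), Shank3 exon 21 (−0.82, adjusted p 0.0148), Akap9 exon 7 (−1.03, adjusted p 0.0202) and Rtn1 exon 3 (−1.80, adjusted p 0.0202). In each the change was more negative in striatum. In cortex Shank3 exon 21 had a log2 change of 0.18 (adjusted p 0.461) and Inf2 exon 21 of −0.17 (0.465).

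Most exons of the gene lists chosen for brain tissue were not called. Of 61 exons of cytoskeleton and synaptic scaffold genes tested in striatum, 5 were lower and 0 higher in R6/2, namely Akap9 exons 7 and 30 (a kinase anchor of the centrosome and Golgi), Dlgap3 exon 3 and Shank3 exon 21 (postsynaptic scaffolds) and Map1a exon 5, where 2.96% of all segments were lower. The list's median log2 change was 0.05, against 0.01 over all segments. The lists hold long exons alone. In striatum the medians of all long exons tested ran from −0.01 under 1 kb from the transcript end to 0.12 at 6 kb or more. In cortex 0 of 59 exons were called. Of 109 exons of chromatin and transcription regulators tested in cortex, 5 were higher and 0 lower (Ep300, Sall1, Srcap, Zfhx3 and Zfhx4). Of all segments 1.22% were called higher. The list median was 0.21, against 0.04 over all segments. Over all long exons tested in cortex the medians ran from 0.07 under 1 kb from the transcript end to 0.19 at 6 kb or more. In striatum 1 of 116 was higher, Kmt2d exon 32, a histone methyltransferase (log2 1.16, limma adjusted p 0.0124).

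Over all segments tested, 1.27% were called higher and 2.96% lower in striatum, and 1.22% and 1.69% in cortex. In lists as small as those below, 1 call or none does not set a list apart from these shares. Among 9 exons of m6A writers, readers and erasers, 1 was higher in each region. It was Virma exon 8 in striatum and Virma exon 14 in cortex (log2 0.79, limma adjusted p 0.0337). Virma exon 8 had a log2 change of 0.45 in cortex (adjusted p 0.0889). None of 29 exons of splicing and RNA processing genes in striatum, and none of 26 in cortex, was called. Of 4 exons of striatal projection neuron genes tested in striatum, Ryr1 was lower. Nr4a1 exon 3, of an activity-induced nuclear receptor, was lower among 3 immediate early exons (log2 −0.64, limma adjusted p 0.0334). Cortical neuron, astrocyte and oligodendrocyte lists (3, 1 and 5 exons) had no call in striatum, and no microglia or vascular exon was tested. The summed striatal markers given above were lower in R6/2 than in NT in both regions, and the astrocyte markers had lower ranges in R6/2 that overlapped those of NT, and their part in these changes was not tested.

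Between the 2 regions of NT mice the differences were larger. Of 1733 long exons tested, 124 were higher and 60 lower in striatum than in cortex (limma, 11.7% of all 10713 segments called, 6.51% higher and 5.24% lower). Inf2 exon 21 had 8.88, 9.65 and 14.0 in striatum and 2.93, 3.16 and 4.36 in cortex (log2 1.42, SE 0.11, limma adjusted p 1.5e-08). Zfhx3 exon 15 had 5.06, 7.80 and 10.1 in striatum and 0, 1.98 and 4.21 in cortex (log2 1.89, SE 0.29, limma adjusted p 0.000147). In both the regions did not overlap. Smpd3 exon 3 (a neutral sphingomyelinase), Akap9 exon 7 and Klhl13 exon 5 were also higher in striatum without overlap, by 1.24, 1.26 and 1.28. Crybg3 exon 4 was higher by 2.60, with overlap.

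Lower in striatum was Kcnc4 exon 2 (a Kv3 potassium channel), with 2.61, 3.36 and 4.18 in striatum and 5.45, 8.50 and 10.9 in cortex (log2 −1.13, SE 0.13, limma adjusted p 5.3e-06) and no overlap. Kcnj3 exon 2 (a G protein-gated potassium channel) changed by −1.20 and Zbtb16 exon 2 (a zinc finger factor) by −1.19. Fat4 exon 9 (a giant cadherin), Hivep3 exon 4 and Plxna4 exon 2 (a semaphorin receptor) were lower by log2 values of −1.99, −1.16 and −1.14 that came from females (−3.56, −2.15 and −2.22) more than from males (−0.42, −0.18 and −0.07). The call for Plxna4 was lost without any one of 4 libraries.

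After the ASO against TDP-43, many long exons were called, on a spread that is not that of mice. Of 1843 tested, 772 were called with limma, 256 higher and 516 lower, near the 46.6% called over all 13468 segments (14.6% higher and 31.9% lower). Relative to the transcript 493 of 1313 were called, 257 higher and 236 lower, against 44.5% of 8316 segments (22.5% higher and 21.9% lower). The 3 ASO and the 3 PBS libraries did not overlap in 847 of the 1843 exons (45.96%), against 50.9% of all segments. Fastkd2 exon 2 (a mitochondrial RNA-binding protein) had 2 in each ASO library and 7, 7 and 6.85 in the PBS libraries. Snapc4 exon 21 (a subunit of the snRNA promoter-binding complex) had 11 in each ASO library and 4, 5 and 6.85 in the PBS libraries. The near identity within a treatment follows from the shared intervals.

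Of the other named exons, Rb1cc1, Fbxl16, Fam135a, Adcy3 and Adgrb1 were higher, by 0.80 to 0.90 on the log2 scale, and Dnajb1 (a heat shock cochaperone), Zmym3, Pias4, Rims2 (a presynaptic active zone protein) and Nab2 lower, with log2 changes between −1.57 and −1.15. Relative to the transcript the named exons were Ptgfrn, Fbxo41 and Tatdn2, higher by 2.16, 2.05 and 1.74, and Unc13a (a synaptic vesicle priming factor), Wdr24 and Nisch, with values of −1.54, −1.46 and −1.31. The direction was turned by counting covered bases for Adcy3, Zmym3, Fbxo41 and Nisch and by counting all listed clusters for Wdr24. The calls of Tatdn2 and Wdr24 were each lost without any one of 4 libraries (limma adjusted p up to 0.0742 and 0.0745). Those of Nab2 and Pias4 were lost without any one of 3 (up to 0.0819 and 0.0628), and that of Fam135a without PBS replicate 2 (0.062).

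A measure that does not count clusters gave few calls. By the mean log2 fold over input of an exon's listed clusters, 14 of the long exons were called with limma, 7 higher and 7 lower (1.08% of 16874 segments). The long exons were not compared with that share. Recql5 exon 15 (log2 −1.17, adjusted p 0.0203), Bdp1 exon 17 (−1.11, adjusted p 0.0403), Tnrc18 exon 22 (−1.003, adjusted p 0.0299) and Ppm1g exon 5 (−0.80, adjusted p 0.0386) were lowest. Atxn7l2 exon 11 (1.04, adjusted p 0.0221), Fnip2 exon 14 (0.95, adjusted p 0.0477), Sh2b1 exon 2 (0.91, adjusted p 0.0203) and Fbxl16 exon 3 (0.86, adjusted p 0.0238) were highest. These 8 were chosen after their values were seen. By library, the share of enriched clusters in long exons was 13.4% ± 0.324 in ASO and 12.8% ± 0.153 in PBS cortex (SD, n = 3 each, exact permutation, p = 0.1, the smallest that 3 against 3 allows).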

How the data were processed

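The deposited cluster lists of 38 m6A and 32 TDP-43 immunoprecipitation libraries were used, and the 70 input libraries were not used here. The authors called clusters with CLIPper on mm10. The deposited lists give a −log10 p of IP against input (0 where the fold is below 0, at most 400) and the log2 fold of IP over input, as the authors scored them. Read depths are not in the lists, so precision is limited by the number of libraries. Calls are per list, and genes, exons and motifs were added from GENCODE vM21 and GRCm38.

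Enriched clusters (p of 0.001 or less) were counted by midpoint and strand in each coding exon and in the UTRs of the longest-coding transcript and divided by median-ratio size factors. After adding 0.5 the values were taken to log2, and limma 3.58.1 (lmFit, eBayes with trend, R 4.3.3) was run for segments with at least 2 enriched clusters in at least 50% of libraries, with sex as a covariate where both sexes occur, two-sided, with Benjamini-Hochberg adjustment over all segments. SE is limma's moderated standard error. Fits relative to the transcript used the log2 ratio to the transcript's other segments. For values of whole libraries the test was an exact permutation, with genotypes exchanged inside each sex (4900 labelings) or sign flips (256). GGACT, GGAC and TCAGG were searched on the gene's strand. All windows of the cluster's width in the same exon were used for comparison, including those that overlap the cluster. Fits were checked on simulated data. Python 3.11.15 with NumPy 2.4.6, pandas 2.3.3, SciPy 1.17.1 and matplotlib 3.10.9 was used.

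Labels do not say whether replicates are separate animals, so p-values measure the spread between libraries. The members, lists and tests were chosen with earlier results of these data known. Named exons are the 12 with most enriched clusters in NT libraries and, per comparison, up to 6 highest and 6 lowest called changes (4 and 4 relative to the transcript) with a mean of at least 4 and, for R6/2, the same sign in both sexes. Alternatives changed the p limit, the study's log2 fold limit of 3, the count, filter, added value, length limit, sex, single libraries and a block for replicate number.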

Additional observations from a re-analysis of the deposited data

Results flagged for a closer look

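Of 114 groups of 8 libraries examined for a lone extreme value, 4 had one, where chance gives about 1 in 20. Female replicate 4 of TDP-43 R6/2 cortex placed 10.6% of its enriched clusters in long exons, above the next library at 8.88%. In m6A R6/2 striatum, female replicate 4 had 38.8 normalized enriched clusters in Ptprz1 exon 12, and the next library 31.2. In m6A NT striatum, male replicate 1 was lowest in Trank1 exon 20, with 22.1 against 28.2 in its nearest neighbour, and female replicate 2 was highest in Inf2 exon 21, with 15.1 against 11.7.

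The change in R6/2 differed between striatum and cortex, by a limma contrast over all segments, in 4 of 1765 long exons tested. Striatum minus cortex was −1.80 on the log2 scale in Rtn1 exon 3 (adjusted p 0.0202), a reticulon of the endoplasmic reticulum, −0.82 in Shank3 exon 21 (0.0148), −0.89 in Inf2 exon 21 (0.00235) and −1.03 in Akap9 exon 7 (0.0202). The same 4 exons were higher in striatum than in cortex of NT mice, by 1.94, 0.70, 1.42 and 1.26. The NT striatum and the NT cortex libraries enter both comparisons, so an exon picked for a negative contrast tends to be higher in NT striatum.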

How the results depend on the processing

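The density gap between long and shorter exons kept its direction and side of the threshold under all alternatives run. Counts of called long exons moved more. In striatum 60 became 95 at a p of 1e-10, 0 at the thresholds of the study, 25 with all listed clusters, 37 with covered bases, 6 in males, 5 in females and 0 by mean log2 fold. In cortex 28 became 46, 0 and 9 under the first 3 of these, 1 in males, 0 in females and 1 by mean log2 fold. After the ASO 772 became 403, 9 and 1302, and 14 by mean log2 fold. Between regions 184 became 3 at the study's thresholds and 87 with all listed clusters. Relative to the transcript, striatum gave 1 at 1e-10, 7 with 2 added, 12 with covered bases and 1 with the far share as covariate (chosen after seeing the data). Cortex gave 0 at the study's thresholds and with all listed clusters, 5 with 2 added or a filter of 1, 1 in males and 0 in females. The ASO fit gave 221, 0, 1410 and, with covered bases, 258.

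The difference in long-exon share became −0.47 percentage points in striatum, 0.19 in cortex (exact permutation p = 0.331) and −0.64 for the ASO at the study's thresholds. For the GGACT share of enriched clusters, long minus shorter, the 600-base limit gave −0.70 in R6/2 striatum, −1.01 in NT striatum, −2.92 in R6/2 cortex and −2.71 in NT cortex. The 300-base limit gave 5.80 in R6/2 cortex and 7.02 in NT cortex, the study's thresholds 5.57 and 6.00, and a p of 1e-10 1.33 in R6/2 cortex. Among named exons, covered bases turned Adcy3 to −0.027, Zmym3 to 0.011, Fbxo41 to −0.055 and Nisch to 0.17, and listed clusters Wdr24 to 0.69. Over the 53 named calls, covered bases left 17 called and 32 not, and listed clusters 36 and 14. The causes were not tested.

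Without single libraries the counts ranged between 38 (without NT female replicate 4) and 66 in striatum, 9 and 29 in cortex, 644 and 697 for the ASO and 154 and 201 between regions, and relative to the transcript 0 and 1, 2 and 5, and 366 and 436. The share difference ranged between 0.116 and 0.777 points in striatum, 0.571 and 0.956 in cortex and 0.390 and 0.697 for the ASO. The GGACT share difference ranged between 1.86 and 2.79 in R6/2 striatum, 2.09 and 2.98 in NT striatum, −0.27 and 0.17 in R6/2 cortex, 0.70 and 1.28 in NT cortex, 3.91 and 4.58 in ASO and 4.68 and 6.01 in PBS libraries, and the log2 density ratio between 4.62 and 4.68, 4.76 and 4.81, 5.00 and 5.03, 5.08 and 5.10, 4.97 and 5.03, and 4.46 and 4.70 in the same order. Same-numbered libraries correlated at −0.24 to 0.15, which cannot show whether they are paired. The labels do not say whether striatum and cortex libraries come from the same mice, and the main fits treated them as separate. With the replicate number as a block 41, 21, 722 and 169 exons were called, and 0, 3 and 375 relative to the transcript.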
